A study of Mus musculus with 16 samples.

Results

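The aryl hydrocarbon receptor genes described here were 8 genes of the mouse ventricle, namely the receptor Ahr, its partner Arnt and the targets Cyp1a1, Cyp1a2, Cyp1b1, Ahrr, Tiparp and Nqo1. They were found among the 22372 genes of the deposited table by gene identifier and symbol, and each matched 1 row. The set was chosen by its link to Cyp1a1, whose high normalized counts in the drug-treated hearts were already known, so its values in the comparisons of THZ1 with vehicle are a description and carry no test. Of the 8 genes, 7 had at least 10 normalized counts in at least 4 libraries and entered the fit over 13331 genes. Cyp1a2 did not, and Cyp1a1 passed mainly through the 2 THZ1 groups, since outside them only 1 library reached 10.

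RNA was sequenced from pieces of heart ventricle of C57BL/6J mice, 10 to 12 weeks old at the start. Mice underwent transverse aortic constriction (TAC), which narrows the aortic arch and overloads the left ventricle with pressure, or a sham operation. From day 1 to day 60 they received THZ1 or vehicle. THZ1, which binds the kinases Cdk7, Cdk12 and Cdk13 covalently and inhibits them, was given in 2 intraperitoneal doses per day of 10 mg/kg each. The 4 groups (vehicle, Sham-Veh and TAC-Veh; drug, Sham-THZ1 and TAC-THZ1) held 4 mice each, carried no transgene and differed in operation and injection alone, per the labels. The drug reached the whole animal and the tissue is a mixture of cell types. In such bulk RNA, a change in how many cells of a type are present and a change in the RNA of each cell cannot be told apart.

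The aryl hydrocarbon receptor is a ligand-activated transcription factor that rests in the cytoplasm with Hsp90 and other chaperones. A bound ligand, such as dioxin, a polycyclic aromatic hydrocarbon or a tryptophan metabolite, sends it to the nucleus, where it pairs with Arnt and binds a short response element with the core GCGTG. Its classic target is Cyp1a1, a cytochrome P450 that oxidizes many ligands, while Ahrr and Tiparp are induced as feedback repressors. Cyp1a2 is best known from liver, Cyp1b1 is made in many tissues outside it, and Nqo1, a quinone reductase, is also a target of the stress factor NRF2.

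The sequences that these genes share are shown first, since the response element is what ties the targets to the receptor. The 7-base form TNGCGTG was searched on both strands in the 2000 bases before each annotated gene start on NCBIM37 (mm9), the build of the files. Of the 13331 genes tested, 22.6% held at least 1 match and the median gene held 0. Cyp1a1 held 7, and it was the only gene tested with that many. Cyp1b1 held 3, a number reached by 0.383% of the genes tested, and Ahrr held 2, reached by 3.26%. Tiparp and Nqo1 held 1 each, and Cyp1a2, Ahr and Arnt held 0. The 7 matches of Cyp1a1 began at positions -1384 to -493 from the gene start. The stretch printed for Cyp1a1 is the 300 bases that hold 4 of them (chr9:57544329-57544628, plus strand), and the others show each match of the 4 other targets with 20 bases on either side. All run 5′ to 3′ on the strand of the gene, and capitals mark TNGCGTG or its reverse complement.
Cyp1a1, chr9:57544329-57544628: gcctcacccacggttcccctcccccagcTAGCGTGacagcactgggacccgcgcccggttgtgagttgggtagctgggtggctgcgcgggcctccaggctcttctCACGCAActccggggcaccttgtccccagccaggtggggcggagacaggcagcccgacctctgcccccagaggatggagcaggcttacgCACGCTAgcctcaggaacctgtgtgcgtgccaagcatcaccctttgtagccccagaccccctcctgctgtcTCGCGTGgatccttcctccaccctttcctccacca
Cyp1b1, chr17:80116058-80116104, minus strand: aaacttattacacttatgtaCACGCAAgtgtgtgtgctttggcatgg
Cyp1b1, chr17:80115229-80115294, minus strand: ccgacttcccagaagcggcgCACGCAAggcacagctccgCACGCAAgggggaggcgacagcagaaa
Ahrr, chr13:74430126-74430172, minus strand: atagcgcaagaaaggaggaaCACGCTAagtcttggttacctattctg
Ahrr, chr13:74429782-74429828, minus strand: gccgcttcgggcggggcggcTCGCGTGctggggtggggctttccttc
Tiparp, chr3:65331938-65331984, plus strand: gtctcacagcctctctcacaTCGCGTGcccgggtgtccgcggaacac
Nqo1, chr8:109927466-109927512, minus strand: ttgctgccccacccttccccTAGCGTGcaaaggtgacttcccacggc

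Close to the start the same genes were less marked. In the RefSeq promoters of GRCm38.p6, which span 300 bases around the start, 7 of the 8 genes had an entry, and Ahrr alone of these held TNGCGTG, 1 match against 5.07% of 32851 promoters. The shorter core GCGTG, which lies inside TNGCGTG, was found in 32.4% of all promoters, 3 times in that of Ahrr and once each in those of Cyp1a1, Cyp1b1, Tiparp and Arnt. Those of Cyp1a2 and Nqo1 held none. A match is a string of letters, and no binding was measured here.

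**Figure D1:**
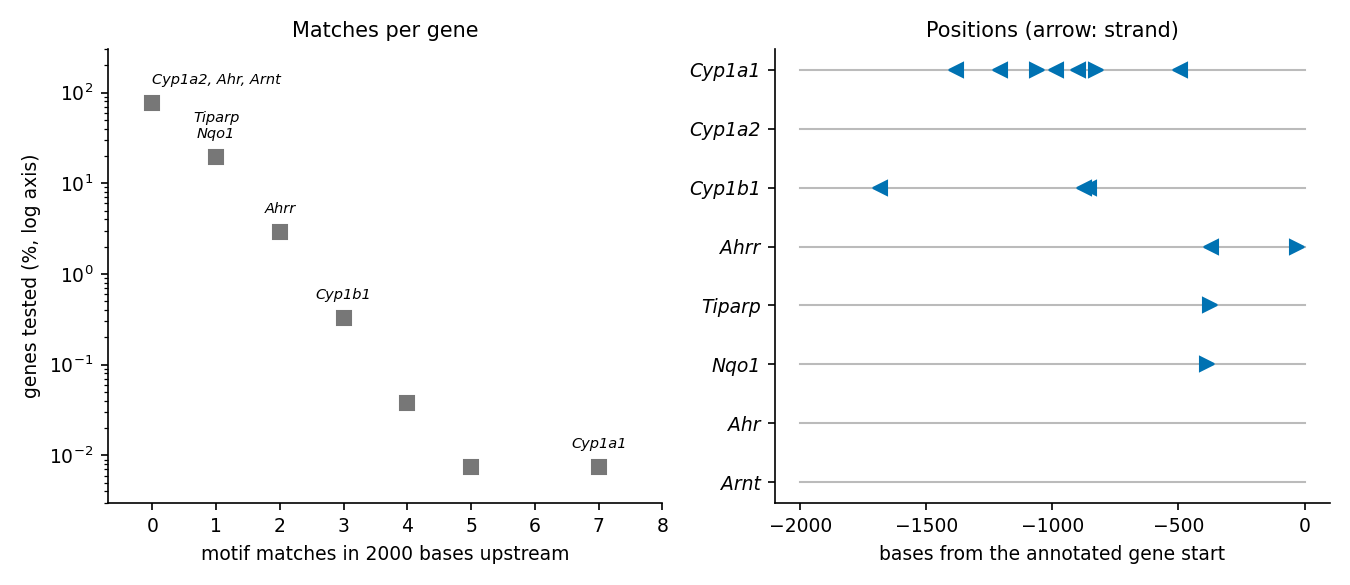
Response element matches before the 8 genes. The left panel plots the percentage of genes tested (log axis) against the number of matches in 2000 bases upstream, with the 8 genes named at their own number, and the right panel plots the start of each match against the distance in bases from the annotated gene start, with arrows for the strand. Cyp1a1 sits alone at 7 matches, at positions -1384 to -493.

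Sequencing was deep enough for most of these genes. The libraries held 21431703 to 35812869 reads assigned to genes, recovered from the normalized counts, and 1 read was worth 0.715 to 1.34 normalized counts. Cardiomyocyte markers were present in every group (8 of 8), which matches the labelled tissue. The fibroblast markers (8 of 8 present) ranged in sum from 24507 to 27287 normalized counts over the Sham-Veh hearts and from 64113 to 128718 over the TAC-Veh hearts. TAC-Veh replicate 1 stood apart for several of the 8 genes: it had the highest Cyp1b1, Tiparp and Nqo1 of all 16 libraries and the lowest Ahrr and Ahr, and for these 5 genes the differences that involve TAC-Veh are given without it too.

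Cyp1a1 (ENSMUSG00000032315, chromosome 9, 57545420 to 57551629) was near 0 in vehicle-treated hearts and abundant under THZ1. Sham-Veh hearts had 9, 4, 10 and 14 reads, or 9.55, 3.21, 8.84 and 16.1 normalized counts. TAC-Veh hearts had 0, 0, 6 and 0 reads, the 6 reads being 5.94 normalized counts, and a count of 0 allows up to 3 reads in a library. Each of the 4 Sham-Veh libraries thus held at least 1 read, whereas only 1 of the TAC-Veh libraries did. Sham-THZ1 hearts had 115, 256, 143 and 187 normalized counts from 96 to 296 reads. TAC-THZ1 hearts had 1541, 1528, 850 and 1006 normalized counts from 1017 to 1411 reads. The 2 drug groups did not overlap each other or either vehicle group, and the lowest TAC-THZ1 heart was above the highest Sham-THZ1 heart.

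The means of Cyp1a1 under vehicle were 9.42 ± 5.27 normalized counts in sham and 1.49 ± 2.97 in TAC hearts, and under THZ1 they were 175 ± 61.6 in sham and 1231 ± 356 in TAC hearts (SD, n = 4). Summed over the mice of a group, TAC-THZ1 held 4672 reads against 6 in TAC-Veh, a ratio of 876 after scaling for depth, with a 95% exact interval of 402 to 2388 that covers counting error only. Sham-THZ1 held 684 reads against 37 in Sham-Veh, a ratio of 20.8 (14.9 to 29.7), and TAC-THZ1 exceeded Sham-THZ1 by a ratio of 6.47 (5.97 to 7.02). On the log2(normalized count + 1) scale, where 1 is added to each value and the change of a low gene is understated, the differences were 9.52 (SE 0.54) for TAC-THZ1 against TAC-Veh, 4.18 (SE 0.54) for Sham-THZ1 against Sham-Veh and 2.82 (SE 0.54) for TAC-THZ1 against Sham-THZ1. The first minus the second of these, the interaction, was 5.34 (SE 0.76). With 5 added in place of 1, the difference in TAC hearts was 7.62 and the interaction 3.96.

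**Figure D2:**
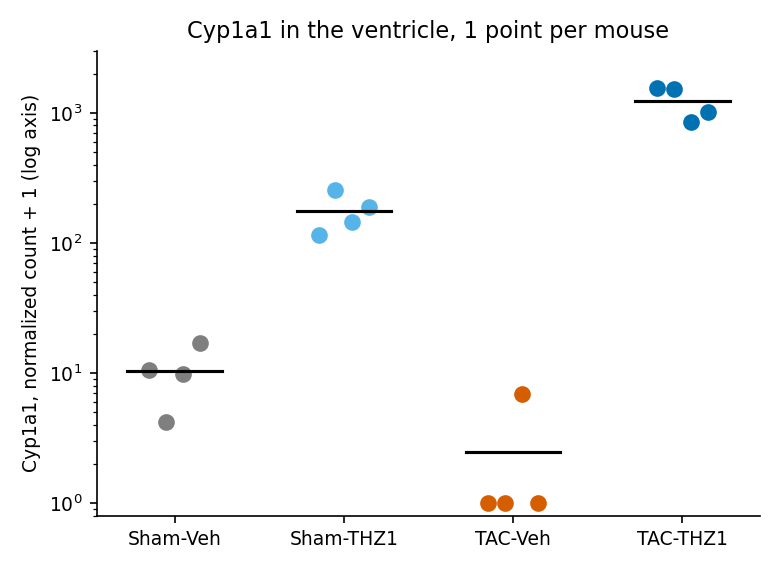
Cyp1a1 in each mouse. Points show the normalized count plus 1 on a log axis by group, 1 point per mouse, and black lines the group means. The 4 TAC-THZ1 hearts lie between 850 and 1541 normalized counts and the 4 Sham-THZ1 hearts between 115 and 256, while 3 of the TAC-Veh hearts lie at 0.

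Under vehicle, Cyp1a1 had fewer reads in TAC than in sham hearts, 6 against 37, and Sham-Veh exceeded TAC-Veh by a ratio of 6.52 (counting interval 2.73 to 18.9). The 2 groups overlapped, since TAC-Veh replicate 3 at 5.94 lay above Sham-Veh replicate 2 at 3.21. The log2 difference of TAC-Veh from Sham-Veh was -2.52 (SE 0.54, adjusted p = 0.00132, limma with Benjamini-Hochberg adjustment over 13331 genes). The vehicle libraries alone would not have brought Cyp1a1 into the fit, and with no filter on low counts the adjusted p was 0.00191. The SE and both p draw on the spread of all 16 libraries. The SD of the log2 values was 0.84 in Sham-Veh and 1.40 in TAC-Veh, but 0.50 in Sham-THZ1 and 0.43 in TAC-THZ1. With Sham-Veh and TAC-Veh fitted alone in limma the adjusted p was 0.0237, and with edgeR on all groups it was 0.0478. Over the other ways of processing the difference ran from -3.22 to -1.17 and the adjusted p from 8.08e-06 to 0.0478, the smallest difference being that with 5 added to each value.

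Cyp1a1 reads could be placed well. Of its 2580 possible 40-base reads, 4.77% also occur in Cyp1a2, and the exons of the 2 genes share no more than these 123 windows. Cyp1a2 (ENSMUSG00000032310, chromosome 9, 57524744 to 57531462), which lies head to head with Cyp1a1 with 13957 bases between the starts, had 1 read in all, in TAC-THZ1 replicate 4. The marker list for hepatocytes, where both enzymes are known to be inducible, had a sum of 42.4 to 75.8 normalized counts over the Sham-Veh hearts, 94.5 to 407 in TAC-Veh, 50.8 to 82.3 in Sham-THZ1 and 68.3 to 181 in TAC-THZ1, with 4 or 5 of its 8 genes detected and Alb and Apob at 0 in each group. Of its 3 genes tested, 2 were higher in TAC-Veh than in Sham-Veh (adjusted p under 0.05 each, limma; median log2 difference 1.53), beside 21.4% of all genes. For THZ1, 0 were called in either operation, beside 29.4% of all genes in TAC and 0.0675% in sham hearts. The part of hepatocytes in the values was not tested. The lung epithelium list reached at most 42.3, in TAC-Veh, with 2 to 5 of its 8 genes detected and the surfactant gene Sftpd at 0 throughout. The neutrophil list differed more. It summed to 49.9 to 98.1 in Sham-Veh, 121 to 276 in TAC-Veh and 81.0 to 537 in Sham-THZ1 (5 or 6 of 8 genes detected, Ly6g at 0 in each), and to 7115, 940, 3079 and 207 in TAC-THZ1 replicates 1 to 4 (8 of 8 detected). Cyp1a1 in these same TAC-THZ1 mice was 1541, 1528, 850 and 1006, and the part of neutrophils in its level was not tested. The endothelial list (8 of 8 detected) summed to 21372 to 23467 in Sham-Veh and 19600 to 24487 in TAC-Veh. With THZ1 it summed to 23634 to 25354 in sham hearts and 18386 to 19920 in TAC hearts. The part of endothelial cells was not tested either.

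The genes around Cyp1a1 did not share its size of change. Within 250000 bases lay 17 genes, 14 of them tested, and their log2 differences for TAC-THZ1 against TAC-Veh ran from -0.81 to 0.45. Of the 14, 4 were called at adjusted p under 0.05 (2 higher, 2 lower; limma), which is near the 29.4% of all genes called (15.1% higher, 14.2% lower). In sham hearts the THZ1 differences of these 14 ran from -0.078 to 0.39. The nearest tested gene, Edc3, which acts in mRNA decapping, lies 4718 bases beyond the end of Cyp1a1 and differed by 0.22 in TAC hearts.

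**Figure D3:**
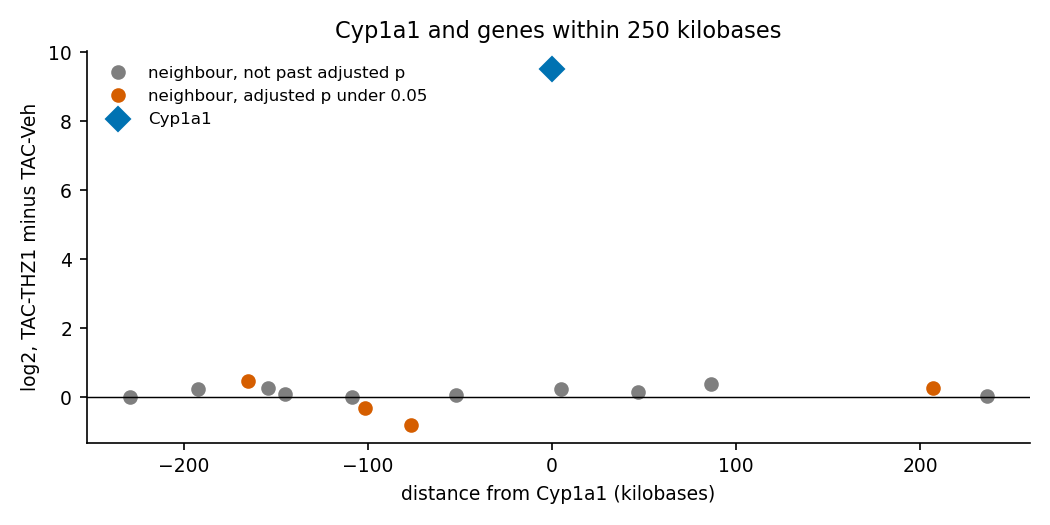
Cyp1a1 and its neighbours in constricted hearts. The log2 difference of TAC-THZ1 from TAC-Veh is plotted against the distance from Cyp1a1 in kilobases for the 14 tested neighbours (circles, orange where the adjusted p was under 0.05) and for Cyp1a1 itself (diamond). The neighbours stay between -0.81 and 0.45 while Cyp1a1 stands at 9.52.

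The receptor and its partner differed little between groups. Ahr (ENSMUSG00000019256, chromosome 12, 36182646 to 36219710) had 252, 242, 279 and 267 normalized counts in Sham-Veh and 209, 242, 283 and 265 in TAC-Veh. With THZ1 it had 219, 342, 282 and 264 in sham hearts and 298, 272, 336 and 235 in TAC hearts. All 4 groups overlapped. Its log2 difference was -0.065 (SE 0.13, adjusted p = 0.716, limma) for TAC-Veh against Sham-Veh, or 0.016 (adjusted p = 0.936) without TAC-Veh replicate 1, and 0.048 (SE 0.13, adjusted p = 0.822) for TAC-THZ1 against Sham-THZ1. The THZ1 differences, given as values only, were 0.19 (SE 0.13) in TAC hearts, or 0.11 without that library, and 0.074 (SE 0.13) in sham hearts.

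Arnt (ENSMUSG00000015522, chromosome 3, 95238310 to 95301162), which also pairs with the hypoxia factors, was the steadiest of the 8 genes across mice. It had 1277, 1316, 1259 and 1372 normalized counts in Sham-Veh and 1448, 1177, 1266 and 1340 in TAC-Veh. With THZ1 it had 1363, 1433, 1360 and 1452 in sham hearts and 1260, 1283, 1177 and 1267 in TAC hearts. TAC-Veh spread around Sham-Veh (log2 difference -0.0012, SE 0.062, adjusted p = 0.989, limma). Every TAC-THZ1 heart lay below every Sham-THZ1 heart, yet that log2 difference of -0.17 (SE 0.062) did not pass the test (adjusted p = 0.0578, and from 0.0148 to 0.144 over the alternatives). The THZ1 differences were -0.066 (SE 0.062) in TAC hearts and 0.10 (SE 0.062) in sham hearts.

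Ahrr (ENSMUSG00000021575, chromosome 13, 74348566 to 74429779), the repressor that competes with the receptor for Arnt, fell with TAC under vehicle. It had 96.5, 134, 117 and 136 normalized counts in Sham-Veh against 27.0, 63.6, 96.1 and 76.7 in TAC-Veh. The groups did not overlap, though their nearest mice stood at 96.5 and 96.1. The log2 difference was -0.99 (SE 0.28, adjusted p = 0.00982, limma), and -0.62 (adjusted p = 0.0157) without TAC-Veh replicate 1. Sham-THZ1 hearts had 95.4, 110, 76.1 and 70.9 and TAC-THZ1 hearts 156, 109, 150 and 108. TAC-THZ1 thus lay above all of TAC-Veh, with a log2 difference of 1.10 (SE 0.28), while Sham-THZ1 overlapped Sham-Veh at -0.46 (SE 0.28), and the interaction was 1.55 (SE 0.40). Without TAC-Veh replicate 1 the difference in TAC hearts was 0.72 and the interaction 1.18. These THZ1 values are a description. Between the THZ1 groups the difference with TAC was 0.57 (SE 0.28, adjusted p = 0.155, and 0.0226 without TAC-Veh replicate 1).

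Tiparp (ENSMUSG00000034640, chromosome 3, 65332332 to 65359067), an ADP-ribosyltransferase that marks the receptor for turnover, rose with TAC under vehicle. It had 361, 409, 394 and 441 normalized counts in Sham-Veh and 710, 475, 486 and 461 in TAC-Veh. The groups did not overlap, and TAC-Veh replicate 1 was far above the rest. The log2 difference was 0.39 (SE 0.11, adjusted p = 0.00958, limma), and 0.24 (adjusted p = 0.0141) without that library. It had an adjusted p of 0.0506 when Sham-Veh and TAC-Veh were fitted alone. Sham-THZ1 hearts had 378, 394, 427 and 372, and TAC-THZ1 hearts 388, 419, 393 and 394. All TAC-THZ1 hearts lay below all TAC-Veh hearts, at -0.40 (SE 0.11), or -0.25 without TAC-Veh replicate 1, and sham hearts with and without THZ1 overlapped, at -0.029 (SE 0.11). TAC-THZ1 and Sham-THZ1 overlapped as well (log2 difference 0.021, SE 0.11, adjusted p = 0.909). Ahrr and Tiparp, both feedback repressors of the receptor, therefore took opposite signs in both comparisons with TAC-Veh.

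Cyp1b1 (ENSMUSG00000024087, chromosome 17, 80106234 to 80114401), a P450 that acts on estrogens and arachidonic acid, showed the largest rise with TAC under vehicle of the 7 genes tested. It had 152, 154, 145 and 138 normalized counts in Sham-Veh and 902, 427, 255 and 410 in TAC-Veh. Every TAC-Veh heart lay above every Sham-Veh heart, with means of 498 ± 280 and 147 ± 7.27 (SD, n = 4). The log2 difference was 1.60 (SE 0.31, adjusted p = 6.06e-04, limma), and 1.26 (adjusted p = 0.00109) without TAC-Veh replicate 1. Cyp1b1 is known from mesenchymal cells, and the fibroblast list rose in the same hearts (6 of 8 markers higher, adjusted p under 0.05 each, limma, beside 21.4% of all genes). The list summed to 98368, 128718, 64113 and 66077 in TAC-Veh replicates 1 to 4. The highest Cyp1b1 was in replicate 1 and the highest fibroblast sum in replicate 2, and the part of fibroblasts in the rise was not tested.

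Under THZ1, Cyp1b1 stood close to its vehicle level in sham hearts. It had 166, 208, 158 and 179 normalized counts in Sham-THZ1, all above Sham-Veh, at a log2 difference of 0.26 (SE 0.31). TAC-THZ1 hearts had 467, 213, 276 and 159, which overlapped TAC-Veh at -0.80 (SE 0.31), or -0.46 without TAC-Veh replicate 1. The fibroblast list summed to 28632 to 42570 in TAC-THZ1 and 24383 to 26187 in Sham-THZ1. Between the THZ1 groups the Cyp1b1 difference with TAC was 0.54 (SE 0.31, adjusted p = 0.216, limma).

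Nqo1 (ENSMUSG00000003849, chromosome 8, 109912125 to 109927106) rose slightly with TAC under vehicle. It had 1216, 1482, 1301 and 1361 normalized counts in Sham-Veh and 2041, 1723, 1592 and 1557 in TAC-Veh, and the groups did not overlap. The log2 difference was 0.36 (SE 0.12, adjusted p = 0.0236, limma). The call was lost without TAC-Veh replicate 1 (log2 difference 0.28, adjusted p = 0.0748), Sham-Veh replicate 1 (0.0689) or Sham-Veh replicate 3 (0.0532), and with library weights (0.0962). Sham-THZ1 hearts had 1613, 1416, 1512 and 1329. TAC-THZ1 hearts fell into a low and a high pair, 1241 and 1206 against 1686 and 1791. Both THZ1 groups overlapped their vehicle group, with log2 differences of 0.13 (SE 0.12) in sham hearts and -0.24 (SE 0.12) in TAC hearts (-0.15 without TAC-Veh replicate 1), and they overlapped each other (-0.0056, SE 0.12, adjusted p = 0.981).

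**Figure D4:**
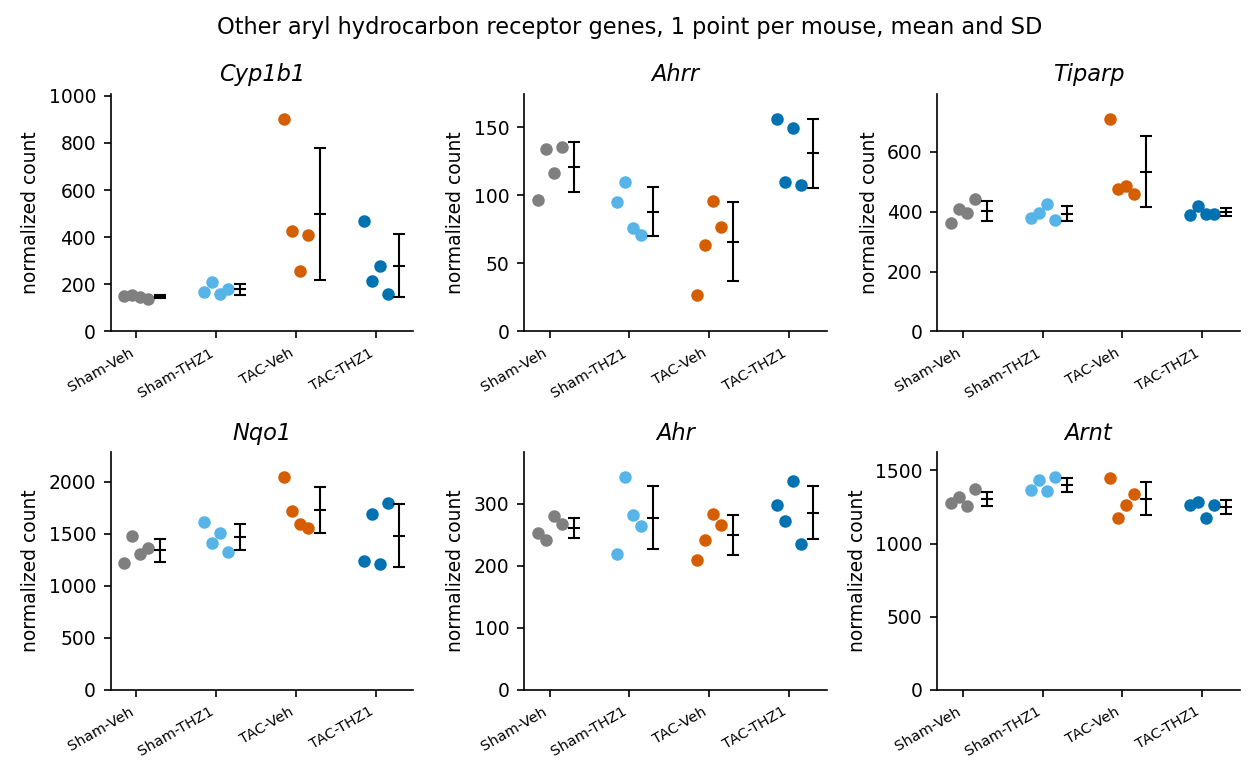
The other 6 genes tested, in each mouse. Each panel plots the normalized count (axes from 0) by group, 1 point per mouse, with the group mean and SD to the right of the points. TAC-Veh replicate 1, the first orange point, is highest for Cyp1b1 at 902, Tiparp at 710 and Nqo1 at 2041 and lowest for Ahrr at 27.0.

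Counted without Cyp1a1, which the THZ1 libraries brought into the fit, 4 of the other 6 genes were called for TAC-Veh against Sham-Veh, 3 higher (Cyp1b1, Tiparp, Nqo1) and 1 lower (Ahrr), beside 45% of all genes tested (21.4% higher, 23.6% lower). With Cyp1a1, the count was 5 of 7. Their median log2 difference was -0.0012, beside -0.003 over all genes. With the larger fold that the study asked for, a log2 of 1, taken here in either direction, Cyp1b1 alone of the 6 was called. Cyp1a1, which was lower, would make 2. Between TAC-THZ1 and Sham-THZ1 only Cyp1a1 passed, 1 of 7 against 24.2% of all genes (11.4% higher, 12.8% lower), and it was chosen for its level there. In the comparisons the choice of genes used, 3 of 7 passed the threshold for TAC-THZ1 against TAC-Veh (Cyp1a1 and Ahrr higher, Tiparp lower; 29.4% of all genes, 15.1% higher and 14.2% lower), 1 of 7 for Sham-THZ1 against Sham-Veh (Cyp1a1; 0.0675% of all genes, 0.0225% higher and 0.045% lower), and 2 of 7 for the interaction (Cyp1a1 and Ahrr; 10% of all genes, 4.4% higher and 5.62% lower). These counts follow from how the genes were chosen, and nothing is read from them. The comparisons also share groups. The median log2 difference of the 7 genes was -0.066 for THZ1 in TAC hearts and 0.10 in sham hearts, beside 0.015 and 0.0026 over all genes.

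**Figure D5:**
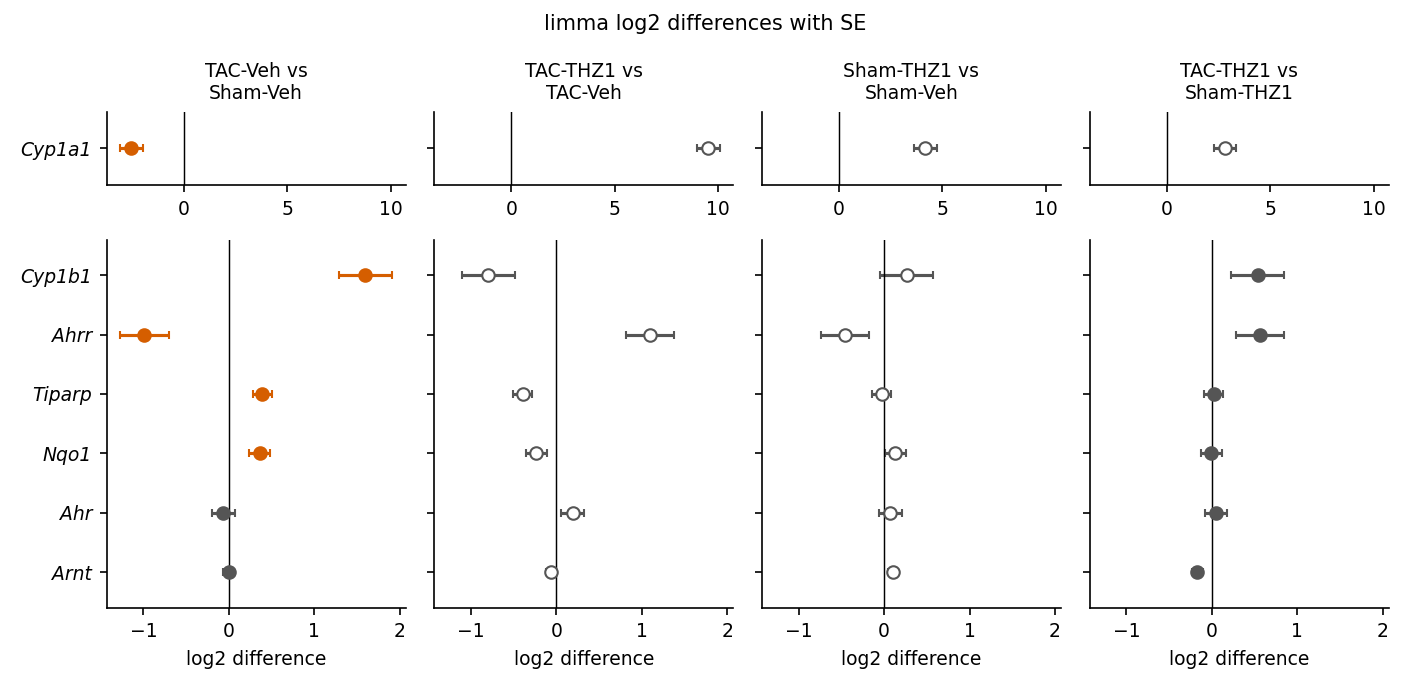
The log2 differences of the 7 genes tested. Each point is a limma difference on the log2(normalized count + 1) scale with its SE, in 4 comparisons, with Cyp1a1 on an axis of its own. Filled points were tested and are orange where the adjusted p was under 0.05, and open points are a description. Cyp1a1 reaches 9.52 for THZ1 in TAC hearts, where the next largest rise is 1.10, that of Ahrr.

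Per kilobase of exon, the scale on which genes can be set side by side, Nqo1 was the most abundant of the 8 in every group. In Sham-Veh hearts the order was Nqo1 at 863 ± 72.2 normalized counts per kilobase, Arnt at 163 ± 6.23, Tiparp at 101 ± 8.39, Ahr at 42.1 ± 2.63, Cyp1b1 at 28.3 ± 1.40, Ahrr at 12.9 ± 1.96 and Cyp1a1 at 3.60 ± 2.01 (SD, n = 4), with Cyp1a2 at 0. In TAC-THZ1 hearts Cyp1a1 stood second at 470 ± 136, between Nqo1 at 954 ± 194 and Arnt at 156 ± 5.96. In Sham-THZ1 hearts it was at 66.9 ± 23.5, below Tiparp at 98.6 ± 6.24 and above Ahr at 44.9 ± 8.23. No test was run between genes.

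The genes whose log2 values followed Cyp1a1 most closely over the 16 libraries were Prosc (Pearson r 0.894), Adsl (0.89), Phf1 (0.889), Tubg1 (0.884) and Dtnbp1 (0.883), of 13330 genes ranked. These r values are a measure of likeness with no test, since the libraries fall into 4 groups. Their changes were small: Prosc averaged 1630 normalized counts in sham and 1549 in TAC hearts under vehicle, and 1749 and 1827 under THZ1. Of the other receptor genes, Ahrr ranked 1540 (r 0.53) and Ahr 2224 (0.46). Arnt (-0.075), Nqo1 (-0.31), Cyp1b1 (-0.31) and Tiparp (-0.58) ranked from 7678 to 12156.

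Other targets of the receptor, from a list of 20 with 13 tested, gave 7 calls for TAC-Veh against Sham-Veh, 6 higher and 1 lower, which is 53.8% beside 45% of all genes (21.4% higher, 23.6% lower; median log2 difference 0.62, beside -0.003 over all genes). Ereg, a growth factor of the EGF family, rose most clearly, from 2.19 ± 0.957 to 83.5 ± 59.9 normalized counts (log2 difference 4.47, adjusted p = 5.04e-06, limma). Slc7a5, a transporter of large neutral amino acids, rose by 0.87 (adjusted p = 2.51e-05), and Aldh1a3, which makes retinoic acid, by 1.67 (adjusted p = 3.68e-05). For TAC-THZ1 against TAC-Veh the 3 calls were all lower (23.1% beside 29.4% of all genes, 14.2% lower): Ereg at -2.97 (adjusted p = 6.34e-04), Aldh1a3 at -1.60 (adjusted p = 2.44e-04) and Ugdh, which makes the sugar donor of glucuronidation, at -0.50 (adjusted p = 0.0227). The other 10 were not called for TAC-THZ1 against TAC-Veh and went both ways, from -0.75 for Cyp2s1 to 0.95 for Gsta1. The median of the 13 was 0.039, beside 0.015 over all genes, and Cyp1a1 stood at 9.52. Under THZ1, TAC-THZ1 against Sham-THZ1, 5 rose and 1 fell (46.2% beside 24.2% of all genes).

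The chaperones and coactivators of the receptor, 12 listed and 12 tested, were called in both directions. With TAC under vehicle 3 rose and 4 fell (58.3% beside 45% of all genes, 21.4% higher and 23.6% lower; median 0.0067). Hsp90aa1, the inducible chaperone that holds the free receptor, rose from 949 ± 131 to 2002 ± 241 normalized counts (log2 difference 1.08, adjusted p = 9.15e-07, limma). Arnt2, a relative of Arnt best known from neurons, rose from 4.87 ± 0.794 to 29.5 ± 6.84 (2.35, adjusted p = 5.37e-05), and the coactivator Ncoa1 fell by 0.58 on the log2 scale (adjusted p = 1.92e-05). For TAC-THZ1 against TAC-Veh 1 rose and 2 fell (25% beside 29.4% of all genes): Ncoa2 by 0.22 (adjusted p = 0.0445), Hsp90aa1 at -0.67 (adjusted p = 2.60e-04) and Arnt2 at -1.70 (adjusted p = 0.00207). TAC-THZ1 against Sham-THZ1 gave 2 higher and 2 lower (33.3% beside 24.2%).

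The NRF2 targets, the other antioxidant program to which Nqo1 belongs, were split as well. Of 18 listed and 16 tested, 5 rose and 4 fell with TAC under vehicle (56.2% beside 45% of all genes; median 0.0035), and 5 rose and 3 fell for TAC-THZ1 against TAC-Veh (50% beside 29.4%; median -0.091). Srxn1, which repairs peroxiredoxins, rose with TAC by 0.64 (adjusted p = 3.32e-06, limma) and was lower with THZ1, at -0.37 (adjusted p = 0.00112). The glutathione transferase Gstm1 went the other way, at -0.47 (adjusted p = 8.68e-04) and 0.45 (adjusted p = 0.00273). The ferritin chains parted with TAC: Ftl1 rose by 0.51 (adjusted p = 4.10e-05) and Fth1 fell, at -0.35 (adjusted p = 0.00747). For TAC-THZ1 against TAC-Veh, Fth1 was higher by 0.51 (adjusted p = 0.00129), and Ftl1 was not called, at -0.14 (adjusted p = 0.158). TAC-THZ1 against Sham-THZ1 gave 4 higher and 2 lower (37.5% beside 24.2%).

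The hypoxia factors that pair with Arnt were listed with other hypoxia genes, 15 listed and 15 tested. With TAC under vehicle 4 were higher and 3 lower (46.7% beside 45% of all genes, median of the list 0.28). Car9, a carbonic anhydrase and classic hypoxia target, rose by 2.28 from 3.48 ± 1.66 normalized counts (adjusted p = 7.80e-04, limma), while the oxygen sensor Egln1, at -0.53 (adjusted p = 1.57e-04), and the factor Epas1, at -0.57 (adjusted p = 8.71e-04), fell. For TAC-THZ1 against TAC-Veh 1 rose and 3 fell (26.7% beside 29.4% of all genes), among them Egln1 at 0.46 (adjusted p = 0.00144), Hif1a at -0.53 (adjusted p = 0.00269) and Car9 at -1.43 (adjusted p = 0.0272). TAC-THZ1 against Sham-THZ1 gave 1 higher and 1 lower (13.3% beside 24.2%).

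The enzymes that turn tryptophan into ligands of the receptor were expressed at few points of the pathway: 6 of 12 were tested. With TAC under vehicle 3 of them fell (50% beside 45% of all genes, 23.6% lower), and for TAC-THZ1 against TAC-Veh the same 3 rose (50% beside 29.4%, 15.1% higher). Ccbl2, a kynurenine aminotransferase, averaged 718 ± 50.9 normalized counts in Sham-Veh hearts, 374 ± 78.8 in TAC-Veh hearts and 672 ± 61.0 (SD, n = 4) in TAC-THZ1 hearts. The log2 difference was -0.96 with TAC (adjusted p = 8.02e-06, limma) and 0.86 with THZ1 in TAC hearts (adjusted p = 1.14e-04). Ccbl1, of the same enzyme kind, was at -0.63 (adjusted p = 8.93e-05) and 0.49 (adjusted p = 0.00183). Afmid, the formamidase of the kynurenine route, was at -0.61 (adjusted p = 3.89e-04) and 0.40 (adjusted p = 0.0142). Both comparisons share TAC-Veh, and the cardiomyocyte list, 8 of 8 detected, summed to 1272084 to 1382957 in Sham-Veh, 659978 to 934798 in TAC-Veh and 1087430 to 1364248 in TAC-THZ1, whose part in these changes was not tested.

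The receptors CAR and PXR, which share drug-metabolizing targets with the aryl hydrocarbon receptor, had 4 of their 10 listed genes tested. With TAC under vehicle 2 fell (50% beside 45% of all genes), Rxra, the partner of both, at -0.67 (adjusted p = 4.72e-05, limma) and the efflux pump Abcb1a at -0.49 (adjusted p = 0.0141). For TAC-THZ1 against TAC-Veh 1 rose, Rxra by 0.30 (adjusted p = 0.0259; 25% beside 29.4% of all genes), and TAC-THZ1 against Sham-THZ1 gave 2 lower (50% beside 24.2%).

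In sham hearts THZ1 gave few calls over all genes tested. Of the 66 genes tested from the 6 lists (87 listed), limma called 0 at adjusted p under 0.05, beside 9 of all 13331 genes (0.0675%). A count of 0 is near that share. At an unadjusted p under 0.05 limma called 5, against 6.88% of all genes tested. edgeR called 0 after adjustment, beside 10 of all 13331 genes, and 6 before it. DESeq2 called 2, beside 33 of all 13331 genes. They were the NRF2 targets Srxn1 (log2 difference 0.34, SE 0.074, adjusted p = 0.00532) and Txnrd1, a thioredoxin reductase (0.28, SE 0.066, adjusted p = 0.0185), which are named here after their values were seen. In limma they had 0.33 (adjusted p = 0.192) and 0.27 (adjusted p = 0.319). On simulated data 11.6% of the calls of DESeq2 were false, against 3.52% of those of limma. Cyp1a1 stood at 4.18 in the same hearts.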

How the data were processed

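RNA-seq libraries from 16 mouse ventricles were analysed, 4 per group by the labels. The deposited values are signal values, gene counts that the authors divided by DESeq2 size factors set over all mouse libraries: single-end 40 base reads were aligned with TopHat2 2.1.1 (per the submitters' processing notes) to mm9 and counted per gene by strand with HTSeq on GENCODE. Dividing each column by its smallest step gave whole reads for 100% of values (tolerance 0.001). From these values, log2(normalized count + 1) was fitted with limma 3.58.1 (trend, R 4.3.3) over all 16 libraries, for genes with at least 10 normalized counts in at least 4 libraries, without covariates, and called at a Benjamini-Hochberg adjusted p under 0.05 over all genes tested. edgeR 4.0.16 (quasi-likelihood) and DESeq2 1.42.0 on the recovered reads were alternatives, beside other pseudocounts (0.5, 5), filters, scalings, weights, a replicate block and each library left out. The fit was tested on data simulated for TAC-Veh against Sham-Veh alone, with the same dispersion set for every gene. There 3.52% of the calls were false with limma, 3.98% with edgeR and 11.6% with DESeq2. Intervals of read ratios are exact and cover counting error only.

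The 8 genes and all gene lists were chosen with earlier results of these data known. Named were the 8 genes, the 5 genes most correlated with Cyp1a1, and from each pathway list up to 3 called genes with the smallest adjusted p for TAC-Veh against Sham-Veh and up to 3 for TAC-THZ1 against TAC-Veh. Edc3, Txnrd1, Gsta3, Scin and the marker genes named at 0 were added after their values were seen.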

Additional observations from a re-analysis of the deposited data

Results flagged for a closer look

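A single mouse of the 4 TAC-Veh mice stood far from the others for 2 of the genes, out of 28 groups examined. That share is near the 1 in 20 that chance gives for normally spread values. Cyp1a1 was highest in replicate 3 at 5.94 normalized counts (6 reads), with the other 3 at 0. With 3 mice at 0 the gap is the whole range whatever the highest value is, so the chance rate does not apply to Cyp1a1. Tiparp was highest in replicate 1 at 710, a gap to the next mouse that was 0.897 of the range of the group.

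Of the 66 genes tested from the 6 pathway lists, 11 (16.7%, beside 10% of all genes tested) had a THZ1 effect in TAC hearts that differed from that in sham hearts by the interaction term (limma, adjusted over all genes tested). The lists were made with earlier results of these data known, and the interaction shares its groups with the comparisons of the report. Ereg (-3.01, adjusted p = 0.017), Arnt2 (-2.31, 0.0101), Aldh1a3 (-1.49, 0.0126), Srxn1 (-0.71, 0.00194), Hsp90aa1 (-0.67, 0.0106) and Txnrd1 (-0.49, 0.00472) had the lower THZ1 effect in TAC hearts. Gsta3 (1.44, adjusted p = 0.0267), Scin (0.90, 0.0273), Ccbl2 (0.72, 0.0132), Ccbl1 (0.50, 0.0341) and Egln1 (0.41, 0.0456) had the higher one. No explanation was weighed.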

How the results depend on the processing

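Of 1117 recomputed values, 1071 were kept, 5 lost the threshold, 7 gained it, 13 moved and 21 changed sign. A difference was kept if it held its direction and side of the threshold or, where not tested, moved by less than the replicate spread. Counts of calls have no direction and were kept when close to the main count, as with 4 in place of 5 or 3 in place of 2. The calls among the 7 genes, Cyp1a1 included, were 2 in place of 5 for TAC-Veh against Sham-Veh with the fold of the study. For TAC-THZ1 against TAC-Veh they were 1 in place of 3 with groups compared alone and 1 with library weights. For TAC-THZ1 against Sham-THZ1 they were 3 in place of 1 with groups alone, 2 with DESeq2, 2 with library weights and from 1 to 3 with a library left out, reaching 3 without TAC-Veh replicate 1 and 2 without TAC-Veh replicate 2. For the interaction they ran from 1 to 3 in place of 2 with a library left out, falling to 1 without Sham-Veh replicate 2, Sham-Veh replicate 4 or Sham-THZ1 replicate 4. A pseudocount of 5 gave Cyp1a1 7.62 in TAC hearts and 3.96 for the interaction, since it compresses low counts. Fewer samples or a changed spread are part of how these alternatives are built, and the cause was not tested further.

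The 21 sign changes were all of tested differences near 0 that were not called. Arnt with TAC under vehicle was 0.014 with upper quartile scaling, 0.00235 with edgeR, 0.0017 with DESeq2 and from -0.052 to 0.048 with a library left out, where Ahr ran from -0.13 to 0.016. For TAC-THZ1 against Sham-THZ1, Nqo1 was 0.028 with upper quartile scaling, 0.016 with edgeR, 0.014 with DESeq2, 0.065 with library weights and from -0.10 to 0.086 with a library left out. Ahr was -0.029 with library weights and from -0.057 to 0.16 with a library left out, and Tiparp from -0.0042 to 0.063. Some differences given as a description, which the 21 leave out, also changed sign near 0. Over the alternatives, Sham-THZ1 against Sham-Veh ran from -0.079 to 0.018 for Tiparp and from -0.033 to 0.18 for Ahr. The Ahr interaction ran from -0.016 to 0.22.

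With the replicate block, calls among the 7 genes were 5 for TAC-Veh against Sham-Veh, 4 for TAC-THZ1 against TAC-Veh, 1 for each of Sham-THZ1 against Sham-Veh and TAC-THZ1 against Sham-THZ1, and 2 for the interaction. No pairing of the mice by the labels' replicate numbers was seen: the deviations of same-numbered mice correlated from -0.43 to 0.164, with 2 of 24 pairs over 0.1. Mice correlated best with their own number in 14 of 48 comparisons, each a choice among the 4 mice of another group. These values cannot show whether mice were handled in numbered sets.

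The study set its folds for a rise with TAC under vehicle and for a fall with THZ1 in TAC hearts. Here they were applied in both directions, and also to comparisons for which the study set none. Over all genes, the fold of the study left 1068 of 6003 calls for TAC-Veh against Sham-Veh and 729 of 3918 for TAC-THZ1 against TAC-Veh. It left 270 of 3220 for TAC-THZ1 against Sham-THZ1 and 506 of 1336 for the interaction. For TAC-THZ1 against TAC-Veh groups alone gave 1399 and library weights 2412. For Sham-THZ1 against Sham-Veh, 9 calls became 465 with groups alone, 33 with DESeq2, 513 with library weights, 3 without Sham-Veh replicate 2 and 15 without TAC-Veh replicate 1. For TAC-THZ1 against Sham-THZ1, 3220 calls became 5011 with library weights, 1977 without TAC-THZ1 replicate 1 and 2065 without Sham-THZ1 replicate 4. The interaction ran from 690 to 2475 with a library left out, lowest without TAC-THZ1 replicate 2 and highest without TAC-Veh replicate 3. Depth limits Cyp1a1 in vehicle hearts and Cyp1a2 throughout.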
